A study of Mus musculus with 16 samples.

Results

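The CREB family and its coactivators were followed as 9 genes: the transcription factor genes Creb1, Crem, Atf1 and Atf2, the CRTC coactivator genes Crtc1, Crtc2 and Crtc3, and the acetyltransferase coactivator genes Crebbp and Ep300. All probe sets annotated to these gene symbols on the array were taken, each on its own, which gave 28 of 45037 probe sets and 9 of 19324 gene symbols. Of the 28, 22 passed a filter that asked for an intensity above the median of all values (99.1) on at least 2 arrays, among 27044 that passed in all. The hippocampus was profiled on 16 Affymetrix Mouse Genome 430 2.0 arrays, each hybridised with RNA pooled from 3 to 4 mice of equal age, sex and genotype. VP16-CREB mice (tetO-VP16-CREB C57BL/6J) carry CREB joined to the strong activating segment of herpesvirus VP16, under a tetO promoter. They and their control littermates (WT, C57BL/6J) were raised on doxycycline (dox), which was then withdrawn from both. There were 3 pools of each genotype at 3 weeks off dox (mice of 6 weeks) and 2 of each at 1 week off dox (mice of 3 weeks). A-CREB mice (TetO-A-CREB-95 C57BL6 F1/J) carry a dominant negative partner of CREB under the same kind of promoter, and 3 of their pools were compared with 3 of control littermates (WT, C57BL/6J). All 6 came from mice of 6 weeks that were raised without dox. The transgenic mice were bitransgenic, and the line that drives the tetO promoter, and so the cells that express the transgene, is not given in the sources used here.

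CREB1, CREM and ATF1 form a subfamily of basic leucine zipper factors that bind the cyclic AMP response element (CRE) as dimers and are activated by phosphorylation after cyclic AMP or calcium signals. CREB-binding protein, encoded by Crebbp, and its paralogue p300, encoded by Ep300, are acetyltransferases recruited to the phosphorylated factor, whereas the CRTC proteins bind the leucine zipper region and move to the nucleus when dephosphorylated. ATF2 binds the same element but belongs to a stress-activated branch of the family. Crem also has an internal promoter with CREs that yields the repressor ICER (inducible cyclic AMP early repressor), a feedback brake on CREB. In the hippocampus this system is best known for activity-dependent transcription and memory.

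The promoter windows of the members are shown first because the factors themselves bind a short motif. A window runs from 250 bases before to 50 bases after an annotated start (RefSeq, GRCm38.p6), and 7 of the 9 members were matched. Crem and Crtc2 had no window, so the counts below say nothing of CREs in Crem, those of its internal promoter included.
The full CRE, TGACGTCA, was found in none of the 7 windows, beside 1.79% of all 32851 windows in the table, and a short site, TGACG or its reverse complement CGTCA, in 1 of 7, beside 20.8%. The full CRE reads the same on both strands and holds both short forms, and both strands were searched.
The windows of Creb1 (chr1:64532554-64532853, plus strand), Crtc1 (chr8:70439524-70439823, minus strand) and Atf1 (chr15:100227609-100227908, plus strand) are printed 5′ to 3′. Some Creb1 probe sets moved furthest, and a Crtc1 probe set fell. The Atf1 window holds the short site at position -90 relative to the start.
The window of Pcsk1 (chr13:75089607-75089906, plus strand), a prohormone convertase gene, is added as one that holds a full CRE, at position -78. Its pattern was among the closest to that of 1 Creb1 probe set, 1421582_a_at. Capitals mark CRE matches.
Creb1: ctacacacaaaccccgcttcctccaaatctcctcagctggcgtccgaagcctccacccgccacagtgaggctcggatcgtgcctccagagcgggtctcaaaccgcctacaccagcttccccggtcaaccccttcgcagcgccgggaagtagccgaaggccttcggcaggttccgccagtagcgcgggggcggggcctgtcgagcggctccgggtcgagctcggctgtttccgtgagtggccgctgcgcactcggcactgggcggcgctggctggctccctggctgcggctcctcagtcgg
Crtc1: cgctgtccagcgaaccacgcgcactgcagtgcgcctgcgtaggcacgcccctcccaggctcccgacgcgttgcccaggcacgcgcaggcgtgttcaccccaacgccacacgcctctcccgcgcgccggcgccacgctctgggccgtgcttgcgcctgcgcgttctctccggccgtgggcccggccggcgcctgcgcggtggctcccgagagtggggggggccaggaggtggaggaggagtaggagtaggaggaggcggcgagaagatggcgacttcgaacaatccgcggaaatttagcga
Atf1: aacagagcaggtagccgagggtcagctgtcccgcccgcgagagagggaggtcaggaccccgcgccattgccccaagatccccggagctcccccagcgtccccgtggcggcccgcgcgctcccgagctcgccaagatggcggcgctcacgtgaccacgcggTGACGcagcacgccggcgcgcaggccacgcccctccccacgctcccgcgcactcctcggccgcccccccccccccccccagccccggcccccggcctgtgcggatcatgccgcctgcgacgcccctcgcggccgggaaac
Pcsk1: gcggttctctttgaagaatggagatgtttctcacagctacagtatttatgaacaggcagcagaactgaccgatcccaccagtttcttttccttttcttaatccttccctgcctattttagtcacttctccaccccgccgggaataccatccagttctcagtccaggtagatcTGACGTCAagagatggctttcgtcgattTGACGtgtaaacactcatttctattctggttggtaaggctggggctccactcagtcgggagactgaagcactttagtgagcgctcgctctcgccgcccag
No match says only that these letters are not in the window, and a match is not a site of binding.

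Each array was scaled by the authors to the same trimmed mean of 500. Median intensities still differed, from 118.9 to 129.3 in the cohort studied at 3 weeks off dox (6 arrays) and from 75.0 to 93.2 elsewhere (10 arrays), so each transgenic group was compared only with littermates of its own cohort, and a level set across cohorts carries that difference. The pan-neuronal markers (10 of 10 measured) summed to 88440.2 or more on every array, with Snap25 at 27609.7 in the controls of the 3 week cohort, and the 4 measured markers of striatum and thalamus summed to 1018 to 1508 over all arrays. The choroid plexus markers (6 of 6 measured) varied more. They summed to 6957 to 26747 in VP16-CREB at 3 weeks against 15187 to 37300 in littermates. At 1 week the sums were 38822 to 46482 against 34680 to 42994, and in A-CREB 29614 to 40960 against 31438 to 43758.5. Ttr was the brightest of these markers. The control means of the others were far lower in the 3 week cohort, with Clic6 at 257 there, 2952 at 1 week and 1711 in the A-CREB cohort. Otx2 was at 37.2, 530 and 279 in the same order. A level set across cohorts carries this difference in choroid plexus markers too. Log2 differences are of the intensity plus 10, with the standard error (SE) of a limma model over all 16 arrays, and adjusted p is over the 27044 probe sets. A probe set is said to rise or fall where the adjusted p was under 0.05. Since each array is a pool and the labels do not describe how mice were assigned to pools, p-values measure the spread between pools only. In bulk hippocampus, fewer cells of a type and less RNA per cell cannot be told apart.

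At 3 weeks off dox, 3 member probe sets rose and 1 fell among the 22 tested, where 3.28% of all probe sets tested rose and 0.651% fell (3.93% in either direction). The rises were of 2 Creb1 probe sets and 1 of Crem, and the fall was of Crtc1. One of these Creb1 probe sets, 1421582_a_at, passed the filter only through the VP16-CREB pools, so its place in the counts of this paragraph is no support. The other 18 had differences between -0.46 and 0.71 on the log2 scale. The median difference of the 22 was -0.14, against -0.01 over all probe sets tested, with 13 of 22 below 0 against 52.0% of all. Between pools of the 2 groups there was no overlap at 9 of the 22, 4 higher and 5 lower in VP16-CREB, where this held for 27.6% of all probe sets tested (14.9% higher, 12.8% lower).

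**Figure D1:**
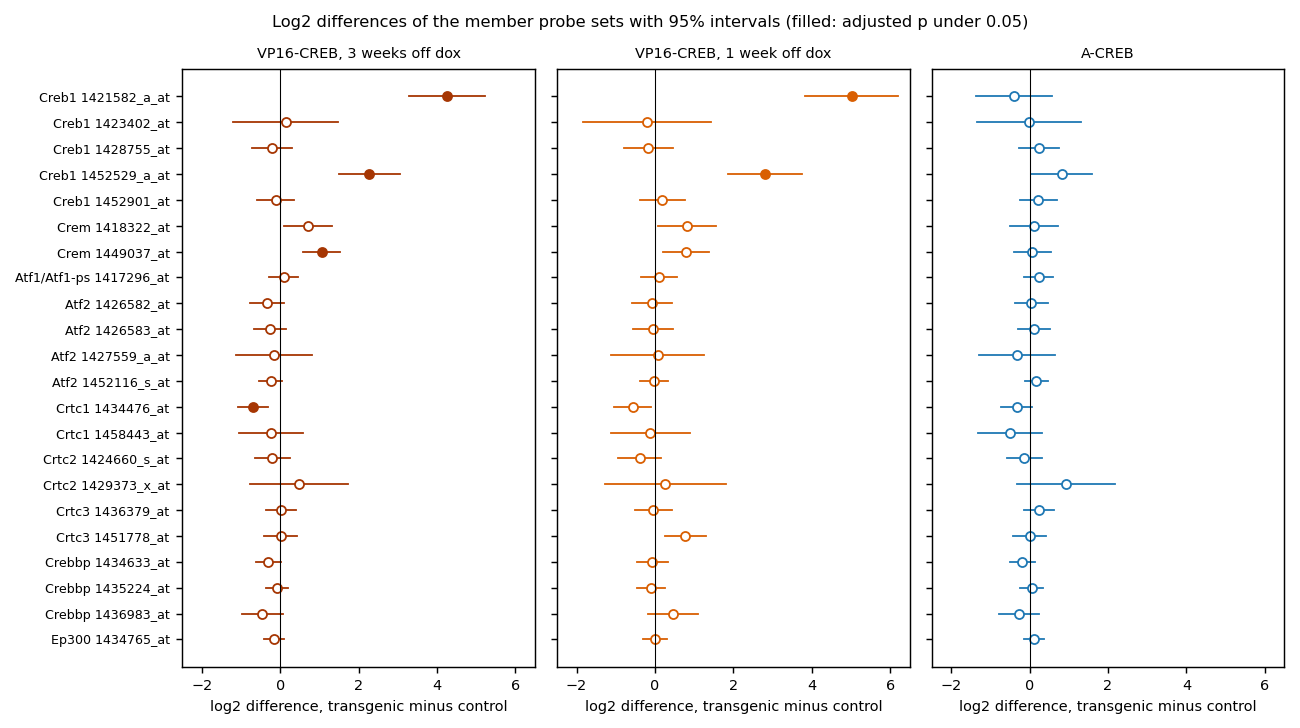
Log2 difference (transgenic minus control littermates, horizontal axis) of each of the 22 member probe sets past the filter, in the 3 comparisons. Points are estimates and bars the 95% intervals of the limma model. Filled points (4 at 3 weeks, 2 at 1 week and 0 in A-CREB) had an adjusted p under 0.05.

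Creb1 lies on chromosome 1 (64532794 to 64604548, GRCm38.p6) and has 6 probe sets, which split into those that rose steeply with VP16-CREB and those that did not. At 1421582_a_at the 3 VP16-CREB pools at 3 weeks read 1139.9, 1097 and 1266, and their littermates 67.3, 32.2 and 61.2. The 2 pools at 1 week read 735 and 991, and their littermates 5.38 and 36.4. Every VP16-CREB pool was thus more than an order of magnitude above every control pool of its cohort. The rise was 19.1-fold at 3 weeks (log2 4.26, SE 0.45, adjusted p = 6.1e-05) and 32.3-fold at 1 week (log2 5.01, SE 0.55, adjusted p = 0.00143). This probe set was above the filter on 5 arrays, which are the 5 VP16-CREB pools, so it was tested only because it was high there. With no filter the adjusted p was 0.000231 at 3 weeks and 0.00589 at 1 week, and with only the 4 arrays of the 1 week comparison in the fit it was 0.152, which ends that call. All controls lay below the filter, and the folds depend on the pseudocount: as ratios of group means without it they were 21.8 and 41.3. At 1 week, without control replicate 1 the log2 difference was 4.22, and without control replicate 2 it was 5.81. A second probe set, 1452529_a_at, moved in the same pools. It read 353, 503 and 604 at 3 weeks against 89.7, 96.3 and 86.3 in littermates, and 282 and 398 at 1 week against 20.5 and 69.4. These pools did not overlap either, and the rises were 4.82-fold (log2 2.27, SE 0.36, adjusted p = 0.00201) and 7.01-fold (log2 2.81, SE 0.44, adjusted p = 0.0178). All controls lay below the filter here too, and the 7 arrays above it were all of transgenic pools. As ratios of group means without the pseudocount, the rises at 1452529_a_at were 5.36 and 7.56. The call at 1 week was lost in 5 of 14 alternative settings: without control replicate 1 or either transgenic pool (adjusted p up to 0.129), with no filter (0.0510) and with only the arrays compared (0.331).

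The remaining Creb1 probe sets did not follow. The brightest, 1452901_at, read 1195, 1639 and 1578 in VP16-CREB at 3 weeks against 1678, 1243 and 1910.2 in littermates, so the groups overlapped and the log2 difference was -0.12 (95% interval -0.60 to 0.35). At 1 week it read 2175 and 1908 against 1459.9 and 2176, with a difference of 0.19 (-0.39 to 0.77). At 1428755_at the differences were -0.22 (-0.73 to 0.29) and -0.16 (-0.79 to 0.46) at 3 weeks and 1 week. These 2 probe sets were designed from the same source sequence, so they are not separate evidence. At 1423402_at, with intensities of 34.8 to 281 over all 16 arrays, the differences were 0.14 (-1.19 to 1.48) and -0.19 (-1.83 to 1.44). The upper bounds at 1452901_at and 1428755_at at 3 weeks, 0.35 and 0.29, lie below the lower bound at 1421582_a_at, 3.30, and at 1452529_a_at, 1.49. The sixth, 1421583_at, shares its source sequence with 1421582_a_at but was below the filter, with 5.90, 2.44 and 20.4 in VP16-CREB at 3 weeks and 0.771, 3.41 and 1.31 in littermates. The 2 probe sets that rose both carry the suffix that Affymetrix gives to sets matching several transcripts of a gene. Probe sequences were not used here, so whether these 2 read the VP16-CREB transgene, the endogenous mRNA or both was not tested, and their rise does not measure the endogenous gene.

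**Figure D2:**
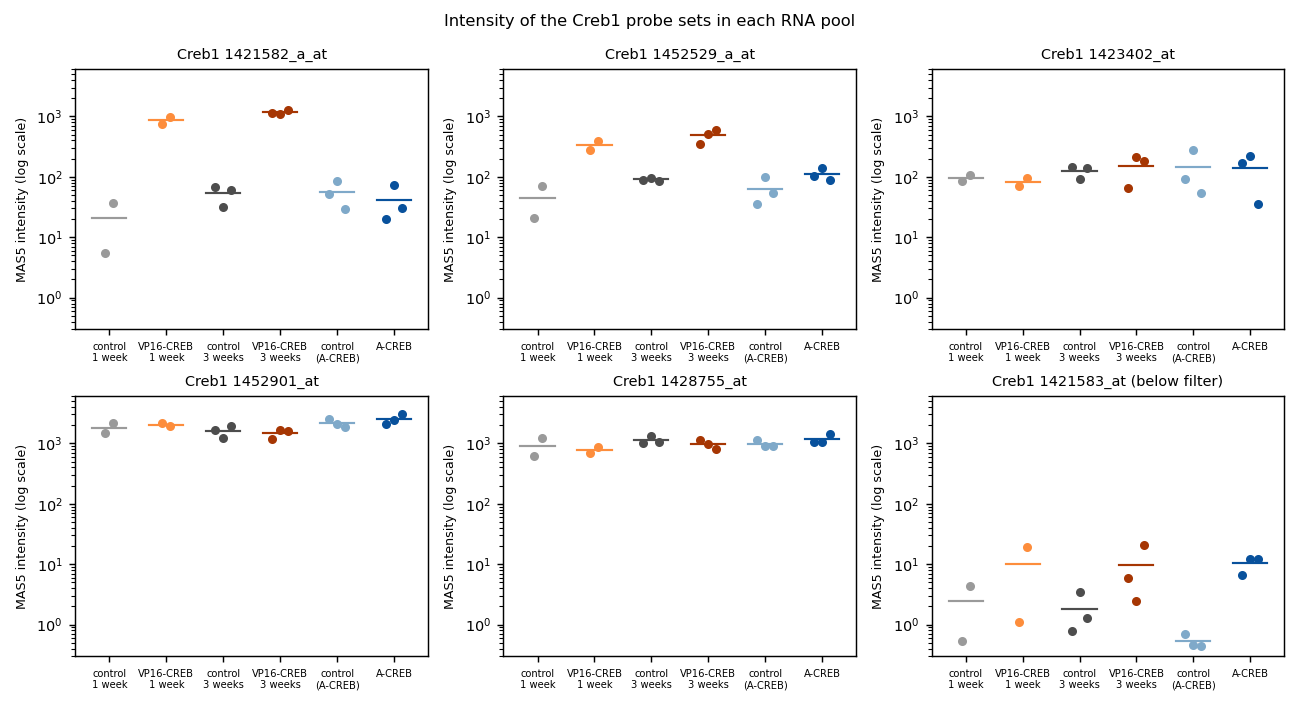
MAS5 intensity (vertical axis, log scale, the same range in each panel) of the 6 Creb1 probe sets in every RNA pool, by group. Points are pools and lines group means. At 1421582_a_at and 1452529_a_at all 5 VP16-CREB pools lie above all control pools, and at the other 3 probe sets past the filter transgenic and control pools overlap in every cohort. Levels of different probe sets are not comparable.

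In the A-CREB cohort neither of these Creb1 probe sets passed the test. At 1421582_a_at the A-CREB pools read 20.3, 74.3 and 30.5 and their littermates 52.7, 85.1 and 29.6 (log2 -0.40, 95% interval -1.36 to 0.56). At 1452529_a_at they read 101, 141 and 89.9 against 34.8, 98.5 and 53.7. This overlapped, and the log2 difference of 0.81 (SE 0.36) had an adjusted p of 1.00. It was the only member probe set of the 22 with an unadjusted p under 0.05 in this comparison, where 4.33% of all probe sets had one. The probe set below the filter, 1421583_at, read 6.57 to 12.3 in A-CREB and 0.449 to 0.699 in littermates, with no overlap. These values are near the bottom of the MAS5 scale and were not tested. A-CREB joins an acidic extension to the leucine zipper of CREB, so it too shares sequence with Creb1, and whether any probe set reads it was not tested. The order of the group means at 1421582_a_at was VP16-CREB at 3 weeks, then VP16-CREB at 1 week, then the 4 other groups, which overlapped with their neighbours in the order. The first 2 did not overlap with each other or with the rest.

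Crem, on chromosome 18 (3266354 to 3337773), had a probe set that rose at 3 weeks. At 1449037_at the VP16-CREB pools at 3 weeks read 693, 764 and 929.8 and their littermates 361, 336 and 431. The lowest transgenic pool was above the highest control pool, and the rise was 2.08-fold (log2 1.06, SE 0.22, adjusted p = 0.0140). At 1 week the pools read 827 and 884 against 462 and 515. They did not overlap either, but the log2 difference of 0.80 (SE 0.27) was not called (adjusted p = 0.579). Subtracting the 1 week effect from the 3 week effect gave 0.26 (95% interval -0.49 to 1.02, adjusted p = 1.00). A second probe set, 1418322_at, read 320.4, 292 and 367 against 180.3, 194 and 212 at 3 weeks and 589 and 399 against 259 and 283 at 1 week. Its pools did not overlap at either time, with log2 differences of 0.71 (SE 0.28, adjusted p = 0.266) and 0.82 (SE 0.35, adjusted p = 0.843), neither of them called. The 2 measured probe sets therefore moved the same way in both cohorts, and 1 passed the test at 3 weeks. That call was lost without control replicate 1 (adjusted p = 0.0615), control replicate 2 (0.0682) or transgenic replicate 3 (0.0863).

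The remaining Crem probe sets were below the filter. At 1430847_a_at the VP16-CREB pools at 3 weeks read 30.3, 30.5 and 41.2 against 61.0, 17.6 and 55.3 in littermates, and at 1430598_at no array exceeded 31.6. Nothing in the annotation says which of the 4 would read ICER, and probe sequences were not used here, so the rise was not assigned to ICER or to the full-length factor. In A-CREB the 2 measured probe sets overlapped with littermates. At 1449037_at the pools read 653, 653 and 399.7 against 597, 629 and 391 (log2 0.07, 95% interval -0.41 to 0.55), and at 1418322_at the difference was 0.12 (-0.49 to 0.73). The effect of VP16-CREB at 3 weeks minus that of A-CREB was 0.99 at 1449037_at (SE 0.31, adjusted p = 0.249), which was not called. By group mean, the order of 1449037_at ran from VP16-CREB at 1 week, VP16-CREB at 3 weeks, A-CREB, the A-CREB controls and the 1 week controls down to the 3 week controls. Among neighbours in this order, overlap was absent only between VP16-CREB at 3 weeks and A-CREB and between the 1 week and 3 week controls.

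**Figure D3:**
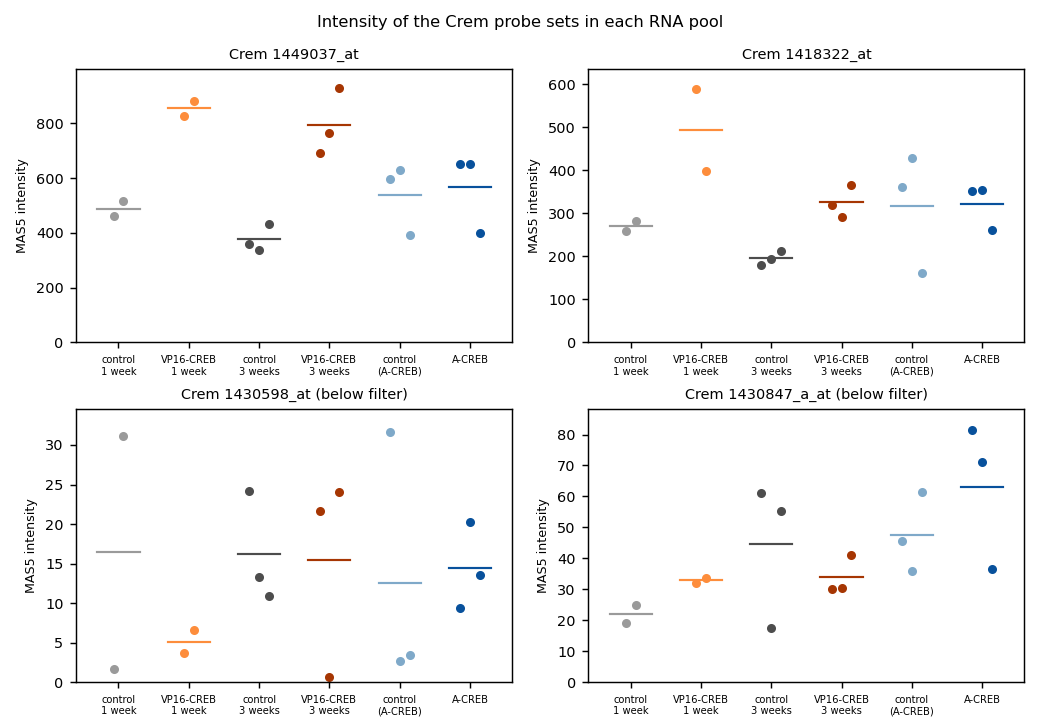
MAS5 intensity (vertical axis, from 0) of the 4 Crem probe sets in every RNA pool, by group, with points for pools and lines for group means. At 1449037_at and 1418322_at the VP16-CREB pools lie above their own littermates at both times, and the A-CREB pools overlap with theirs. The other 2 probe sets were below the filter.

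Of the genes with a pattern most like these, by Pearson r over the 16 arrays after the mean of the littermates of each cohort was subtracted, the 5 closest to Creb1 1421582_a_at were D17H6S56E-5 (r = 0.97), Mpo (0.96), Pcsk1 (0.96), Fyb (0.96) and Pdyn (0.94). Pdyn encodes prodynorphin and is a known CREB target, Mpo encodes myeloperoxidase and Fyb an adaptor protein of leukocytes. The 5 closest to Crem 1449037_at were H2-M3 (0.97), Plek (0.96), Slc14a1 (0.96), Gpr183 (0.96) and Itgam (0.95). H2-M3 encodes a nonclassical MHC class I molecule, Plek pleckstrin of blood cells, Gpr183 an oxysterol receptor of immune cells, Slc14a1 a urea transporter of red blood cells and astrocytes, and Itgam the integrin CD11b of microglia and macrophages. These arrays share cohorts and groups, so the r values describe a shared group pattern and carry no p. Crem is also an activity-regulated gene of immune cells, and markers of microglia and macrophages moved in the same pools: at 3 weeks 14 of 15 rose, with a median log2 difference of 2.16 and a summed intensity of 69904 to 83153 in the transgenic pools against 17269.7 to 17944. Of all 12732 genes measured, each by its brightest probe set, 4.59% rose at 3 weeks, and 0.298% were called at 1 week and 0% in A-CREB. At 1 week 2 of 15 rose (median 0.95, 32405 to 37954 in the transgenic pools against 17458 to 22489), and in A-CREB none was called (median 0.37, 21156 to 27926 in the transgenic pools against 18053 to 21762). Some astrocyte markers moved there too: at 3 weeks 3 of 10 rose, namely Gfap (2.76), Vim (2.17) and Aqp4 (1.13). The list median was 0.66, with a summed intensity of 81837 to 102290.0 in the transgenic pools against 61538 to 72513. The 3 of highest mean, Slc1a2, Aldoc and Gja1, differed by -0.03, 0.05 and 0.13 and were not called at the probe set used. At 1 week Gfap rose (1.80; list median 0.18, 70858 to 84832 in the transgenic pools against 61004 to 63296), and in A-CREB none was called (median 0.18, 62917 to 82116 in the transgenic pools against 58092 to 71152). These astrocyte sums did not overlap between transgenic and control pools at 3 weeks or 1 week. Gfap, Vim and Aqp4 are named because they were called, after their values were seen. No marker of either list was at 0 on any array. Against littermates, the log2 difference of Crem 1449037_at was 1.06 at 3 weeks (called) and 0.80 at 1 week (not called). The microglia and macrophage medians were 2.16 and 0.95 in the same order. The part of microglia, macrophages and astrocytes in the Crem values was not tested.

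**Figure D4:**
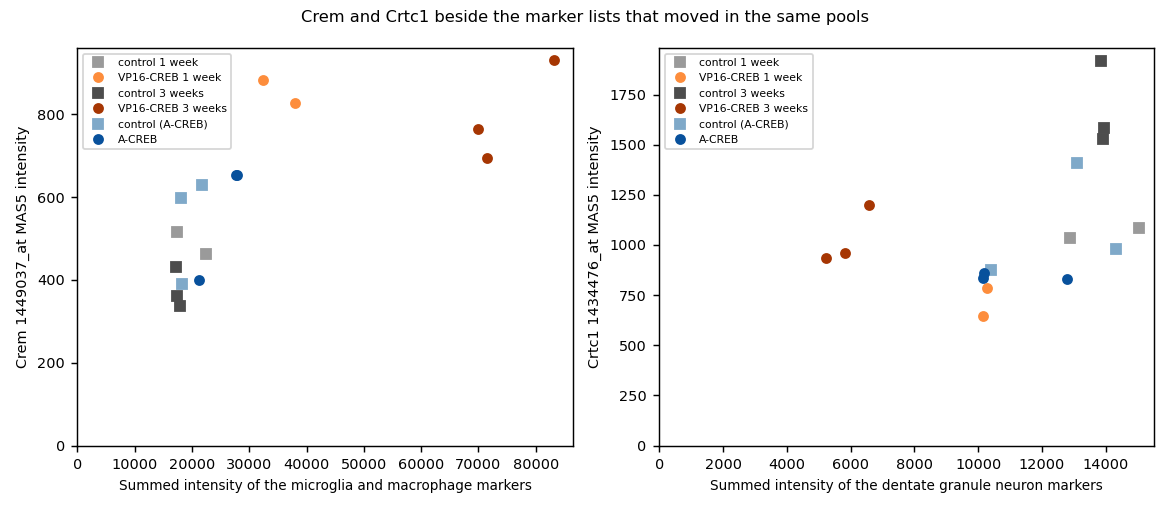
Left, intensity of Crem 1449037_at against the summed intensity of the 15 measured microglia and macrophage markers, and right, Crtc1 1434476_at against that of the 9 dentate granule neuron markers, 1 point per RNA pool (squares, controls). The VP16-CREB pools at 3 weeks stand apart on both marker axes. At 1 week the VP16-CREB pools had a microglia and macrophage sum of 32405 to 37954. Levels set across cohorts carry the difference in array medians.

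Atf1 (chromosome 15, 100227859 to 100261248) has 1 probe set, 1417296_at, which the annotation gives to both Atf1 and the pseudogene Atf1-ps, so its signal cannot be assigned to either. It read 334, 440.1 and 417 in VP16-CREB at 3 weeks against 371, 443 and 313, and 389.9, 440.4 and 519 in A-CREB against 401, 429 and 319. Both pairs of groups overlapped, and the differences were 0.08 (-0.29 to 0.45) and 0.23 (-0.14 to 0.60), with 0.10 (-0.35 to 0.56) at 1 week. Atf2 (chromosome 2, 73816509 to 73892677) has 5 probe sets, of which 4 passed the filter and 3 of these share a source sequence. At 1452116_s_at the VP16-CREB pools at 3 weeks read 3310.1, 3436 and 3189, all below the littermates at 4032, 3538 and 4199, while the A-CREB pools at 4099.7, 4101 and 5014 were all above theirs at 3896, 3777 and 4053. The differences of -0.24 (SE 0.14, adjusted p = 0.509) and 0.17 (SE 0.14, adjusted p = 1.00) were not called, nor was the contrast between them (-0.41, SE 0.19, adjusted p = 0.586). The A-CREB pool at 5014, replicate 3, also gave the 519 at 1417296_at. Its array had the highest ratio of 3′ to 5′ actin control probe sets in the series, 2.48. The other 3 measured Atf2 probe sets had differences of -0.34, -0.27 and -0.16 at 3 weeks and of -0.08, -0.05 and 0.07 at 1 week, none called. The fifth, 1437777_at, was below the filter, with a highest intensity of 88.3.

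Among the coactivators, Crtc1 fell. It lies on chromosome 8 (70382352 to 70439702), and its product is the CRTC member best known in neurons, where it links calcium and cyclic AMP signals to CREB. At 1434476_at the VP16-CREB pools at 3 weeks read 1198, 959 and 936 and their littermates 1529.8, 1918 and 1584. No pool overlapped, and the fall was by 0.70 on the log2 scale (SE 0.18, adjusted p = 0.0467). At 1 week the pools read 645 and 787 against 1034 and 1085 (log2 -0.56, SE 0.22, adjusted p = 0.742), and in A-CREB 835, 858 and 832 against 979, 875 and 1407 (log2 -0.33, SE 0.18, adjusted p = 1.00). Neither was called. The transgenic pools were thus below every littermate pool in all 3 comparisons, a pattern that 63 of the 27044 probe sets tested share (0.233%), and no other member does. The call at 3 weeks was close to the threshold. It was lost in 8 of 16 alternative settings, among them leaving out any of the controls or transgenic replicate 2 or 3 (adjusted p between 0.0920 and 0.201), without the filter (0.117), without the pseudocount (0.0523) and with the replicate number as a block (0.106). The log2 difference stayed between -0.81 and -0.60. A second Crtc1 probe set, 1458443_at, overlapped between groups in each comparison, with differences of -0.25, -0.11 and -0.49 and intervals that include 0. The other, 1446533_at, was below the filter.

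Markers of dentate granule neurons moved in the same pools as Crtc1. At 3 weeks 8 of 9 fell, beside 0.864% of all genes, with a median log2 difference of -1.56 and a summed intensity of 5232 to 6566 in the transgenic pools against 13844 to 13955. At 1 week none was called (median -0.45, 10167 to 10275 in the transgenic pools against 12885 to 15041), and in A-CREB none (median -0.38, 10166 to 12791 in the transgenic pools against 10397 to 14329). The markers of CA1 had medians of -0.58, -0.39 and -0.24 in the same order, and those of CA3 -0.27, -0.15 and -0.11, while the pan-neuronal markers had -0.21, 0.02 and -0.13. Against littermates, the Crtc1 1434476_at differences were -0.70 at 3 weeks (called) and -0.56 at 1 week (not called). Their contrast was -0.13 (95% interval -0.75 to 0.48), which is too wide to say whether they differ in size. The medians of the granule neuron markers were -1.56 and -0.45 in the same order. The part of cell composition in the Crtc1 values was not tested.

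The other CRTC genes were not called. Crtc2 (chromosome 3, 90253858 to 90264125) was dim: 1424660_s_at read 94.1 to 122 in VP16-CREB at 3 weeks against 106 to 143 and 49.5 and 42.9 at 1 week against 73.6 and 54.1. The 1 week pools did not overlap, with a difference of -0.38 (95% interval -0.93 to 0.17). At 3 weeks and in A-CREB the pools overlapped, with differences of -0.20 (-0.65 to 0.25) and -0.14 (-0.59 to 0.31). The second Crtc2 probe set, 1429373_x_at, varied from 7.59 to 125.6 over the arrays. Its differences were 0.48 (-0.78 to 1.73) at 3 weeks, 0.27 (-1.27 to 1.80) at 1 week and 0.92 (-0.33 to 2.17) in A-CREB. Crtc3 (chromosome 7, 80586627 to 80688948) gave one steady and one cohort-dependent reading. At 1436379_at the differences were 0.03 (-0.36 to 0.41), -0.04 (-0.51 to 0.43) and 0.23 (-0.15 to 0.62). At 1451778_at the 1 week VP16-CREB pools read 107 and 79.3 against 51.2 and 48.2 in littermates, with no overlap, while the 3 week pools at 241, 142 and 171 overlapped with theirs at 193, 204 and 145. The log2 difference was 0.78 at 1 week (SE 0.24, adjusted p = 0.458) and 0.01 at 3 weeks, and the contrast of -0.77 (SE 0.31, adjusted p = 0.882) was not called. All 4 arrays of mice of 3 weeks were low at this probe set (48.2 to 107) beside 98.0 to 241 in the 12 arrays of mice of 6 weeks.

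Crebbp (chromosome 16, 4081334 to 4213957) and Ep300 (chromosome 15, 81586209 to 81652077) showed small differences at 3 weeks, none of them called. At Crebbp 1434633_at the VP16-CREB pools read 893, 940.1 and 816 against 979.8, 1337 and 1002, and at 1436983_at 541, 724 and 689.8 against 961, 806 and 912. Neither pair overlapped. The differences were -0.31 (95% interval -0.63 to 0.01) and -0.46 (-0.97 to 0.06), with adjusted p of 0.392 and 0.462. The brightest Crebbp probe set, 1435224_at, overlapped and differed by -0.08 (-0.37 to 0.20). Ep300 at its only probe set read 829, 908 and 888 against 950.0, 1083 and 916, again with no overlap, and a difference of -0.16 (-0.42 to 0.09). At 1 week it read 873 and 903 against 885 and 895 (difference 0.00, -0.32 to 0.31), and in A-CREB the difference was 0.12 (-0.14 to 0.37). A fall of Ep300 by more than 0.42 on the log2 scale at 3 weeks lies outside that interval. Crebbp 1436983_at also separated the ages: it read 247 to 376 on the 4 arrays of mice of 3 weeks and 536 to 1263 on the 12 of mice of 6 weeks, a separation that 184 of the 27044 probe sets tested show in either direction (0.680%). It was the only one of the 22 members to do so. Its VP16-CREB pools were above littermates at 1 week (376 and 336 against 247 and 266, log2 0.46) and below them at 3 weeks, and the contrast of -0.91 (SE 0.38, adjusted p = 0.911) was not called. The age of the mice, the time off dox and the cohort cannot be told apart here. The fourth Crebbp probe set, 1459804_at, was below the filter, with a highest intensity of 45.0.

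At 1 week off dox the count of member probe sets called was 2 of 22, both of Creb1 and both higher, where 0.237% of all probe sets tested were called (0.218% higher). Creb1 1421582_a_at passed the filter only through the VP16-CREB pools, so its place in this count and in the next is no support. There was no overlap at 10 of the 22, 7 higher and 3 lower, beside 28.6% of all (15.7% higher, 12.9% lower). Those higher were the 2 of Creb1, the 2 of Crem, the shared Atf1 probe set, Crtc3 1451778_at and Crebbp 1436983_at. Those lower were Crtc1 1434476_at, Crtc2 1424660_s_at and Crebbp 1435224_at. The median difference of the 22 was -0.02, against 0.02 over all probe sets tested. In A-CREB no member was called by limma, nor was any of the 27044 probe sets (0%), while 1 of 22 members and 4.33% of all had an unadjusted p under 0.05. There was no overlap at 2 of the 22, Crtc1 1434476_at (lower) and Atf2 1452116_s_at (higher), beside 6.82% of all (3.28% lower, 3.54% higher), and the median difference was 0.06 against 0.00. The test of the effect at 3 weeks minus that at 1 week called no member (0.00370% of all probe sets), and 2 of 22, Crtc3 1451778_at and Crebbp 1436983_at, had an unadjusted p under 0.05, beside 4.99% of all. The effect of VP16-CREB at 3 weeks minus that of A-CREB was called at 1 member, Creb1 1421582_a_at (log2 4.65, SE 0.63, adjusted p = 0.00299), beside 0.887% of all. The A-CREB pools and both sets of controls lay below the filter there, so its size is not exact and this count is no support. At Creb1 1452529_a_at it was 1.46 (SE 0.51, adjusted p = 0.330) and was not called.

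The genes around the family were taken from lists by role, each gene by its brightest probe set on average. Of 13 measured other genes of the CREB and ATF basic leucine zipper group, 2 rose at 3 weeks, Atf3, a stress-induced repressor, by 3.92 (SE 0.45, adjusted p = 0.000140) and Nfil3, a repressor of clock output genes, by 2.02 (SE 0.29, adjusted p = 0.000829), and none fell, beside 4.59% and 0.864% of all genes. The list median was -0.01, and that over all genes measured 0.00. Of 16 measured kinase and upstream signalling genes, 1 fell and none rose: Adcy1, a calcium-stimulated adenylyl cyclase that makes the cyclic AMP upstream of CREB, by 0.99 on the log2 scale (SE 0.21, adjusted p = 0.0157). Of 15 genes listed as brakes on CREB or its coactivators none was called in any of the 3 comparisons. At 3 weeks the calcineurin gene Ppp3ca was at -0.61 (adjusted p = 0.178) and Ppp2ca, a catalytic subunit of phosphatase PP2A, at -0.06. CRTC proteins move to the nucleus when dephosphorylated, so these phosphatase genes are not to be read as brakes on them. None of 15 other coactivators and partners was called either, with Nono, a partner of the CRTC proteins, at -0.11 and the steroid receptor coactivator gene Ncoa1 at -0.36. At 1 week and in A-CREB no gene of these 4 lists was called, and the list medians lay between -0.07 and 0.07, against medians of -0.01 and 0.01 over all genes measured.

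Of 26 CRE-driven target genes 10 rose and none fell at 3 weeks (median 0.44), 1 rose at 1 week (median 0.38), and none was called in A-CREB (median -0.09). Of all genes 4.59% rose at 3 weeks and 0.298% were called at 1 week. This list was chosen with results of these arrays known, so its count is a description. Pdyn rose by 3.03 at 3 weeks and by 2.73 at 1 week (adjusted p of 1.43e-06 and 0.000138). After it and Nfil3 came Inhba, an activin subunit gene, at 1.78 and Fosb, an AP-1 factor gene, at 1.53 at 3 weeks, with adjusted p of 0.00686 and 0.00175. Of the 21 target genes with a promoter window, 6 held a full CRE in at least 1 of their windows, and 1 of these, Pcsk1, was among the 9 matched genes that rose at 3 weeks. Its level rose from 118 in littermates to 291 (log2 1.27, SE 0.27, adjusted p = 0.0174), and the others with a full CRE, named here for that motif only, were Btg2, Cartpt, Dusp1, Scg2 and Sst, at -0.01, -0.26, 0.30, 0.26 and 0.18, none of them called.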

How the data were processed

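RNA of mouse hippocampus was measured on Affymetrix Mouse Genome 430 2.0 arrays, 1 pool of 3 to 4 mice per array. The deposited values are linear intensities that the authors computed with MAS5, per the submitters' processing notes; its version is not given in the sources used here. In the values, the mean of each array without the highest and lowest 2% is 500. Such scaling makes array totals alike, so a change shared by most genes would not show. Probe sets were named through GEO's platform annotation, in which 34945 of 45037 have 1 symbol, 932 several and 9160 none, after 64 control probe sets were left out. Genes were located and promoter windows taken from RefSeq (GRCm38.p6).

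A pseudocount of 10 was added to the intensities, log2 was taken, and probe sets above the median of all values (99.1) on at least 2 arrays were kept (60.0%). limma 3.58.1 in R 4.3.3 (lmFit and eBayes) fitted 1 mean per group over the 16 arrays, with 10 residual and 3.44 prior degrees of freedom, two-sided, and p-values were adjusted by the Benjamini-Hochberg method over 27044 probe sets. The number of arrays limits the precision. The script was tested on simulated data in which 100 probe sets at each size were changed: at 3 weeks 57 of 100 changed by 1 on the log2 scale and 86 of 100 changed by 2 were called, at 1 week 29 and 74, and in A-CREB 45 and 88.

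The members and lists were chosen with earlier results of these data known. Named were all member probe sets; per list by role, up to 4 called genes in order of size or the 2 brightest; per marker list, up to 3 genes of highest mean; and the 5 genes most like a Creb1 and a Crem probe set. The astrocyte markers called at 3 weeks were named as well. Replicate numbers were checked for pairing by the correlation of deviations from the group means of same-numbered pools, which was -0.16, -0.23 and 0.22 at 3 weeks, 0.15 for both pairs at 1 week, and -0.05, 0.41 and 0.27 in A-CREB, so they were not treated as pairs. Other pseudocounts, filters, normalizations, variance models and a replicate block were tried, and each pool was left out in turn.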

Additional observations from a re-analysis of the deposited data

Results flagged for a closer look

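One result stood out by a test of the difference between effects. At Creb1 1421582_a_at the effect of VP16-CREB at 3 weeks exceeded that of A-CREB by 4.65 on the log2 scale (SE 0.63, limma adjusted p = 0.00299), with every VP16-CREB pool at 3 weeks above its littermates and the A-CREB pools overlapping with their own littermates. The 2 effects come from separate cohorts with separate controls, and whether the probe set reads the VP16-CREB transgene was not tested. The probe set passed the filter only through the VP16-CREB pools, and the A-CREB pools and both sets of controls read below it, so the size of the difference is not exact. With no filter the adjusted p was 0.0106.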

How the results depend on the processing

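At 3 weeks 4 member probe sets were called, with 2 to 6 over 16 alternatives: 5 with only the arrays compared, 6 with array weights, 3 with the replicate block, and 2 to 4 with each pool left out, the lowest without control replicate 1, control replicate 2 or transgenic replicate 3. At 1 week 2 were called, 1 with no filter, 0 with only the 4 arrays compared, 2 with the replicate block, and 1 to 2 with each pool left out. The A-CREB count stayed 0 in 16 alternatives, as did the contrast of 3 weeks with 1 week in 20, and the contrast of 3 weeks with A-CREB stayed 1 in 22. No member changed direction among the called values. Both Creb1 calls at 3 weeks held in 16 of 16 (log2 3.95 to 4.60 and 2.10 to 2.50). Without a pseudocount the 1 week difference of Creb1 1421582_a_at was 5.93, and with 25 it was 4.35. The cause of the lost calls was not tested. Fewer than 4 pools a group limit the design, and a filter on the mean leaves out both dim Crtc2 probe sets.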

Other observations

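Of the CRE-driven target genes that rose at 3 weeks, 5 of 9 with a promoter window held a short site (TGACG or CGTCA) in at least 1 window, and of those not called 12 of 12 did. The full CRE was in 1 of 9 and 5 of 12. These counts were noticed in the data, and no test was made of them.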
